A study of Mus musculus with 12 samples.

Results

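The comparison described here is that of 3 contracted with 3 uncontracted gastrocnemius muscles of mice labelled control, 6 of the 12 libraries in the series. The libraries were chosen by their labels, with no measured value used. All 12 libraries came from female C57BL/6J mice at 11 weeks of age, and the other 6 came from mice labelled as over-expressing c-myc. In every mouse the right lower leg was contracted and the left was not, so contraction and the side of the body cannot be told apart. The libraries are called uncontracted 1 to 3 and contracted 1 to 3 after the numbers in their titles. A left and a right leg of equal number are read as the 2 legs of a mouse from the titles alone, which no other label states. The series title calls the exercise acute and high in intensity. How the muscle was made to contract, how long afterwards it was taken, how c-myc was over-expressed and whether the control mice carried any construct are not given in the sources used here.

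Whole muscle holds fibres together with vessels, nerve, tendon, fat and blood cells, and in bulk RNA fewer cells of a type and less RNA per cell cannot be told apart. Contraction is known to raise calcium, heat, acid, oxidants and mechanical strain inside fibres and to deplete ATP and glycogen. The known transcriptional answer starts with immediate early genes, whose promoters are switched on by pre-existing factors such as SRF and CREB. It continues with chaperones under heat shock factor HSF1, oxidant defence genes under NRF2, metallothioneins under MTF1, titin-bound stress proteins and the coactivator PGC-1alpha. Each of these programmes is described below from the counts, together with the genes that fell and with those of no listed group.

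The 6 libraries held 1478772 to 1635751 reads each, so that 1 read was worth 0.611 to 0.676 CPM (reads scaled to a common library total). A library with 0 reads of a gene is still compatible with up to 3 reads, or 1.83 to 2.03 CPM. Mitochondrial genes took 27.1 to 33.9% of reads. The summed level of 8 fast and slow fibre markers was 99400 to 107000 CPM in uncontracted and 84000 to 98500 CPM in contracted libraries, lower in every contracted one. None of the 8 was at 0 and none passed the test. Myc itself, the gene over-expressed in the other mice (chr15:61985391-61990374, mm10), serves as a check on the labels. The 3 uncontracted control libraries held 0, 1 and 0 Myc reads, and contracted 1 held 1. Contracted 2 held 10 reads (6.59 CPM, 95% exact Poisson interval 3.16 to 12.1) and contracted 3 held 59 (39.9 CPM, interval 30.4 to 51.5). The libraries labelled contracted control 2 and 3 thus hold Myc reads, unlike contracted 1. Among the libraries labelled Myc, the uncontracted ones held 11, 9 and 9 reads and the contracted ones 32, 0 and 2, so that contracted Myc 2 and 3 are the low ones there. The cause was not tested. Myc had a log2 change of 5.72 ± 1.60 (SE) with contraction and did not pass in edgeR's test (adjusted p = 0.0594). It passed with the animal as a block (log2 change 5.68, adjusted p = 0.0131), without a low-count filter (5.71, 2.69e-15), without contracted 1 (6.26, 0.00555) and without contracted 2 (6.08, 0.0489). In edgeR it did not pass with RLE scaling (5.71, 0.0613), with library totals alone (5.76, 0.0816), without uncontracted 1 (5.26, 0.208) or without uncontracted 3 (5.24, 0.189). Nor did Myc pass in DESeq2 (6.04, adjusted p = 0.11). Its log2 change was 3.69 without contracted 3 and 7.58 without uncontracted 2, neither of which passed (adjusted p = 0.571 and 0.149), and 1.40 (adjusted p = 0.998) when all 4 contracted libraries numbered 2 and 3 were left out. Results are therefore given for all 3 contracted libraries and, for a number of lists and genes, also without those 4, as "with contracted 1 alone". In that fit the lone library is assumed to vary like the other groups.

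**Figure D1:**
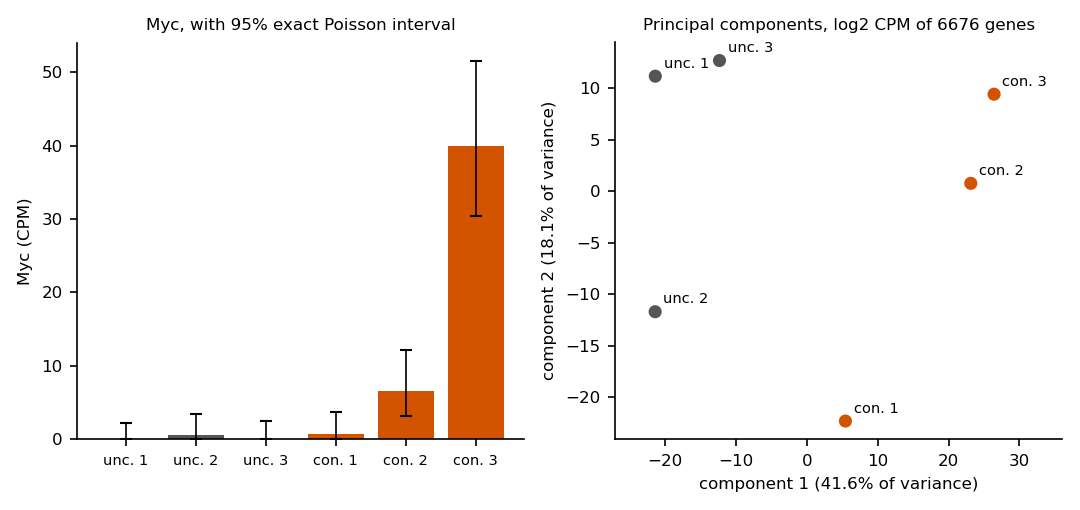
Left, Myc in CPM (linear axis) in the 3 uncontracted (grey) and 3 contracted (orange) control libraries, with 95% exact Poisson intervals that cover counting error only. Contracted 3 stands at 39.9 CPM, contracted 2 at 6.59 and the other 4 at or under 0.673. Right, the same libraries on the first 2 principal components of log2 CPM over 6676 genes, where contracted 1 lies between the uncontracted libraries and the other 2 contracted ones on component 1.

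More genes rose with contraction than fell. Of 6676 genes with enough reads, 187 (2.8%) passed at an adjusted p under 0.05 in edgeR's quasi-likelihood test, 159 upward (2.38%) and 28 downward (0.419%). These shares are the background for the counts in each list below. A gene near 0 at rest could pass the low-count filter through contracted libraries alone, and it could then hardly fall. The share risen, the absence of falls and the median of a list with such members are therefore partly set by the filter and are no test. The genes that rose had a median log2 change of 1.64, with a range of 0.57 to 6.80. Those that fell had a median of -0.90, with the deepest at -2.12. Over all 6676 genes the median was 0.007, and 90% of them lay between -0.575 and 0.849. Of the 159 rises 130 exceeded 2-fold, 58 exceeded log2 2 and 9 exceeded log2 4, whereas 10 of the 28 falls exceeded 2-fold and 1 exceeded log2 2. Without any adjustment, 858 genes (12.9%) had p under 0.05.

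The 159 genes that rose took 0.569, 0.591 and 0.637% of the reads in the uncontracted libraries and 1.65, 2.13 and 2.21% in the contracted ones. The 28 that fell took 0.301, 0.297 and 0.333% against 0.201, 0.181 and 0.160%. Contracted 1 was the least changed of the contracted libraries on both sums, and neither pair of groups overlapped. These sums describe genes picked by the same contrast and are no test. All 3 contracted libraries lay above all 3 uncontracted ones in 154 of the 159 risen genes and below them in all 28 fallen ones, and the same was true of 664 (9.95%) and 408 (6.11%) of all genes tested. Between legs of equal number, the contracted one was the higher in all 3 pairs for 158 of the 159 rises and the lower in all 3 for all 28 falls, against 18.1 and 16.4% of all genes tested. Since the same contrast picked these genes, this agreement is no test either.

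The calls were spread over the range of abundance. Among the 2046 genes under 10 CPM 32 rose and 2 fell, and their median SE was 0.40 on the log2 scale. Between 30 and 100 CPM 49 of 1442 rose and 11 fell, with a median SE of 0.18. Of the 70 genes at or above 1000 CPM 2 rose, Mt1 and Hspb8, and none fell. Changes under 2-fold were thus harder to resolve in genes of few reads. In simulated data over the 6676 genes, 17.9% of 1.5-fold, 53.7% of 2-fold and 97% of 4-fold changes were recovered. There 7 unchanged genes were called. A gene that did not pass may therefore still have changed, by 2-fold or less in particular. Of the 187 calls 183 were protein-coding genes, whose share among all genes tested was not counted. Because no strand setting is given, the reads of the 26 called genes that overlap another gene with reads on the other strand, and of the 10 that overlap one on the same strand (among them Xirp1 with Cx3cr1 and Ppargc1a with Gm42614), cannot be assigned with certainty.

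**Figure D2:**
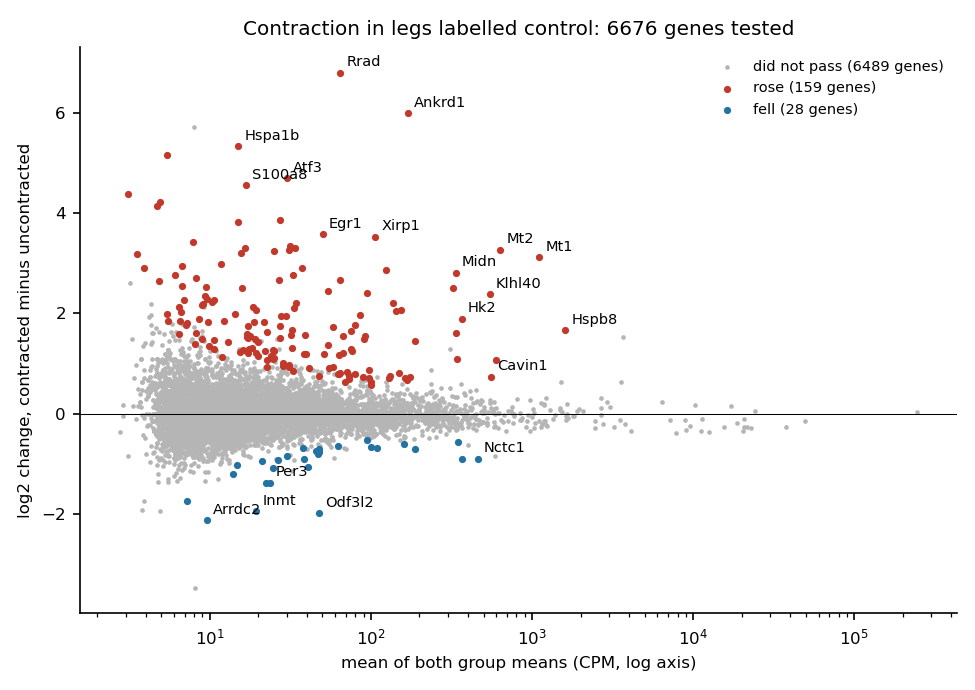
Log2 change (contracted minus uncontracted) of the 6676 genes tested against the mean of the 2 group means in CPM (log axis). Red points are the 159 genes that rose, blue points the 28 that fell and grey points the rest. The red points reach 6.80 (Rrad) and the blue ones -2.12 (Arrdc2).

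Contracted 1 and the pair of Myc-containing libraries moved the same way but not to the same extent. The median log2 ratio to the uncontracted mean over the 159 risen genes was 1.21 in contracted 1, 1.60 in contracted 2 and 1.77 in contracted 3. Contracted 1 was the lowest of the 3 in 109 of those genes and the highest in 10. Over the 28 fallen genes the medians were -0.74, -0.95 and -0.94, and contracted 1 was the least lowered in 19. With contracted 1 alone, 67 genes passed (64 upward, 3 downward), of which 63 were among the 187, and all 183 of the 187 that were measured kept their sign. It ended 120 calls, and in 27 of these the fold also moved by over 1.5 times. Of the genes described below those were Enah, Gnl3, Ier5, Mxra8, Myf6, Nmrk2, Ppargc1a, Retreg1, Rrp12, Rrp1b, Runx1, Snai3, Spry2, Tnfrsf12a and Wdr43. The animal and its Myc reads cannot be told apart here, because 1 library stands on that side. Contracted 1 took part in picking the 187 genes, so their kept signs are no independent test.

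**Figure D3:**
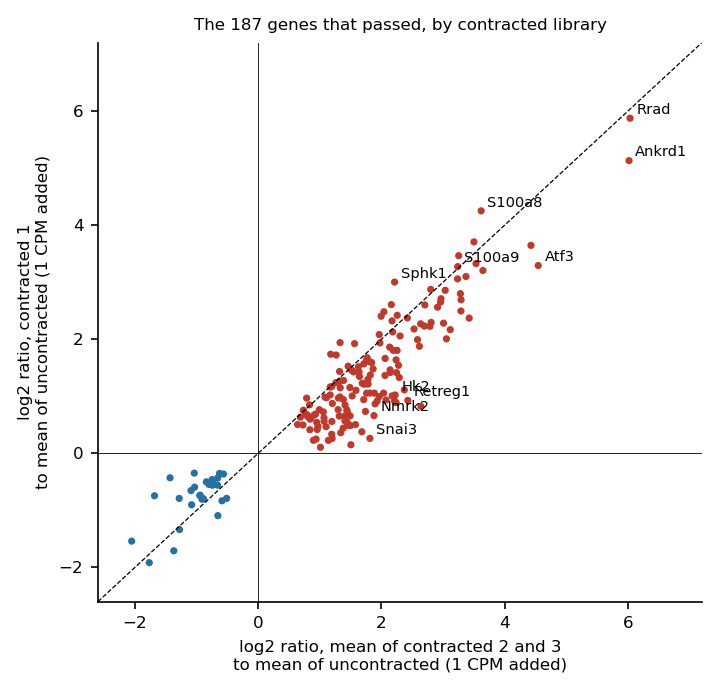
The 187 genes that passed, each placed by its log2 ratio to the mean of the uncontracted libraries (1 CPM added) in contracted 2 and 3 (mean, x axis) and in contracted 1 (y axis). Red points rose and blue points fell. The dashed line marks equal ratios. Most red points lie under the line, among them Hk2, Retreg1, Nmrk2 and Snai3, while Sphk1 and S100a8 lie above it.

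For 8 genes that rose, the stretch of promoter that carries a sequence named after a known stress or load pathway is shown, because the groups of genes described below are known for those sequences. Each is read from RefSeq on GRCm38.p6 in the direction of the gene, in lower case with the searched letters in capitals. Hspa1b and Hspa1a encode the inducible HSP70 chaperone, Hspb1 a small heat shock protein, Mt2 a metallothionein, Osgin1 and Srxn1 oxidant-response proteins, Atf3 a stress transcription factor and Ankrd1 a titin-bound ankyrin repeat protein. The capitals mark the heat shock element dyad (GAANNTTC) in the first 3, the antioxidant or MAF recognition site (TGANTCAGC, on either strand) in Mt2, Osgin1 and Srxn1, the ATF or CRE site (TGACGTNA, here on the reverse strand) in Atf3, and the M-CAT element bound by TEAD factors (CATTCCT, here on the reverse strand) in Ankrd1.
Hspa1b (chr17:34959305-34959372, minus strand): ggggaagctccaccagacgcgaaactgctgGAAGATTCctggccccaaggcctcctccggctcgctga
Hspa1a (chr17:34972223-34972290, minus strand): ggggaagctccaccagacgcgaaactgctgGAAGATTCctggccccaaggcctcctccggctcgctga
Hspb1 (chr5:135887772-135887859, plus strand): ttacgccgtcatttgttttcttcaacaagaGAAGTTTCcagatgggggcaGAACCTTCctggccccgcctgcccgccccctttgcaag
Mt2 (chr8:94172509-94172577, plus strand): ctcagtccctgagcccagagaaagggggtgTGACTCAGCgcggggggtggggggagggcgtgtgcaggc
Osgin1 (chr8:119437018-119437086, plus strand): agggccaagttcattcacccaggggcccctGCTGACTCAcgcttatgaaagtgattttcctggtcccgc
Srxn1 (chr2:152105449-152105517, plus strand): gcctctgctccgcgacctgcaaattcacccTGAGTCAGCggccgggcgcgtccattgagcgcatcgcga
Atf3 (chr1:191183334-191183373, minus strand): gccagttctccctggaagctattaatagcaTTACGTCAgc
Ankrd1 (chr19:36120019-36120085, minus strand): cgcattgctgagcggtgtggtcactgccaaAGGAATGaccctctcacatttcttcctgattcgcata

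The heat shock dyads begin 104 bases before the RefSeq start of both HSP70 genes and 117 and 97 bases before that of Hspb1. Hspa1a and Hspa1b promoters were identical in 296 of 300 bases. Of the 50-base windows of the Hspa1b transcript in GENCODE 62.3% also occur in that of Hspa1a, but none of those in its last 500 bases, so reads from the 3' end can be told apart and reads from further inside may not be. Matches were counted on both strands over the 250 bases before each start. The dyad (GAANNTTC or its mirror TTCNNGAA) was present in 7 of 17 promoters (41.2%) of the 11 risen chaperone genes that matched. Among 5 risen genes of the titin-linked stress and sarcomere repair list it was in 3 of 6 promoters (50%), those of Ankrd1, Klhl40 and Mustn1. None of 8 promoters of risen metal and oxidant genes and none of 13 of risen early response factors held it. Its share was 12.6% in promoters of all risen genes, 9.85% in those of genes tested and 12.8% in all 32851 mouse promoters of the table. Chaperones that did not rise were not counted, so a trait of the family and one of its risen genes cannot be told apart. The antioxidant site, which contains the AP-1 letters TGANTCA, was in 3 of 8 promoters (37.5%) of 6 risen metal and oxidant genes. It was in 4.19% of those of all risen genes and in 1.02% of all. The metal response core (TGCACNC or TGCGCNC) was in 3 of the same 8 promoters and in 30.6% of those of genes tested. The shown stretches of Atf3, Osgin1 and Ankrd1 lie inside the GENCODE spans of those genes, because the RefSeq starts used lie further in. The Atf3 site begins 10 bases before its RefSeq start. Such a site was in 1 of 13 promoters (7.69%) of risen early response factors, that of Atf3, in 4.79% of those of all risen genes, in 4.25% of those of genes tested and in 2.52% of all. The CArG box, known as the SRF site, was in none of those 13 and in 1.47% of all. CATTCCT was in the promoters of Ankrd1 and Flnc among the risen genes of the titin-linked stress and sarcomere repair list and in 4.51% of all. A match describes letters and is not evidence of binding.

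Immediate early transcription factors rose. Of 22 listed early response factors of the EGR and NR4A kind 14 were tested. Of these 6 rose (42.9%), none fell and the median log2 change was 1.23, or 1.06 with contracted 1 alone. Members low at rest, such as Csrnp1, could pass the filter through contracted libraries alone, so these figures are no test. Egr1, a zinc finger factor induced within minutes by SRF (chr18:34859823-34864984), stood at 7.95, 8.65 and 5.86 CPM in the uncontracted and 84.1, 110 and 84.5 CPM in the contracted libraries. Every contracted library, number 1 included, was about as high as the others. Its log2 change was 3.58 ± 0.41 (adjusted p = 7.42e-06) and 3.49 with contracted 1 alone. Nr4a3, an orphan nuclear receptor known to be induced by exercise, rose from 4.89, 9.88 and 6.51 CPM to 37.0, 47.5 and 55.5 CPM (log2 change 2.66 ± 0.44, adjusted p = 0.000656). Arid5b, a DNA-binding partner of a histone demethylase, stood at 3.67, 6.79 and 7.81 against 35.6, 53.4 and 96.7 CPM (log2 change 3.29 ± 0.45, adjusted p = 8.29e-05, and 2.56 with contracted 1 alone). Ier5, which binds HSF1, rose by 1.83 ± 0.36 on the log2 scale, with 1.15 and no pass with contracted 1 alone (adjusted p = 0.329). Csrnp1, a nuclear factor responsive to AXIN1, rose by 2.65 ± 0.59, and Arid5a, a relative of Arid5b, by 1.61 ± 0.40, both from few reads. Nr4a1, with 6, 4 and 7 against 12, 13 and 8 reads, did not pass (log2 change 1.01 ± 0.50).

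Of 15 listed members of the AP-1 family, dimers of FOS, JUN, ATF and MAF proteins, 11 were tested. Of these 5 rose (45.5%), none fell and the median was 1.56, which was 0.70 with contracted 1 alone. Members near 0 at rest, such as Fosb, could pass the filter through contracted libraries alone, so these figures are no test. Atf3 (chr1:191170296-191218039) led the family, with 0, 2.47 and 3.90 CPM in uncontracted and 29.6, 64.0 and 79.8 CPM in contracted libraries. The groups were far apart, with contracted 1 lower than the other contracted libraries. Its log2 change was 4.70 ± 0.61 (adjusted p = 3.59e-05), 4.11 without uncontracted 1, 5.36 without uncontracted 3 and 3.80 with contracted 1 alone. Junb rose from 0.611, 3.71 and 4.56 CPM to 24.9, 39.6 and 20.3 CPM (log2 change 3.21 ± 0.53, adjusted p = 0.000656). It overlaps Prdx2 on the other strand, and since no strand setting is given, reads of the 2 cannot be told apart. Mafk, a small MAF partner of NRF2, rose by 1.56 ± 0.25, and Jund by 0.72 ± 0.17. Fosb rose by 2.90 ± 0.70 from 4 reads in all uncontracted libraries to 31 in the contracted ones, and by 4.11 without uncontracted 1. Fos had 11, 5 and 0 reads against 15, 20 and 33, a log2 change of 2.12 ± 0.57 that did not pass (adjusted p = 0.0544), and Jun had 0.81 ± 0.36.

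Krueppel-like factors and feedback genes joined them in part. Klf6 rose from 7.34, 6.79 and 11.7 CPM to 45.7, 86.4 and 66.3 CPM (log2 change 2.90 ± 0.34, adjusted p = 1.09e-05). Klf5, a zinc finger factor tied to muscle lipid metabolism, rose from 19.6, 11.1 and 18.2 CPM to 77.4, 96.3 and 101 CPM (log2 change 2.45 ± 0.24, adjusted p = 9.83e-07). Those were the 2 risen of 9 tested, and the list's median was 0.42. Among 17 brakes on signalling and mRNA decay factors 5 rose and none fell, with a median of 0.34. Btg2, an adaptor for mRNA deadenylation, had a log2 change of 2.21 ± 0.31, the cyclic AMP phosphodiesterase Pde4b 1.96 ± 0.26 and the pseudokinase Trib1 1.74 ± 0.23. The 3 contracted libraries were close together for all 3 genes, and their changes were 2.22, 1.99 and 1.73 with contracted 1 alone. Spry2 and Errfi1, which restrain growth factor receptors, rose by 1.52 ± 0.32 and 1.49 ± 0.40. Spry2 had 0.80 with contracted 1 alone (adjusted p = 0.923), and Errfi1 did not pass with the animal as a block (adjusted p = 0.0542). Dusp1 and Zfp36, classical early brakes, had log2 changes of -0.01 ± 0.25 and 0.39 ± 0.41.

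Some of the chaperones rose and none fell. Of 41 tested members of the HSP70, HSP90 and HSP60 families with their co-chaperones 8 rose (19.5%), with a list median of 0.14. Hspa1b (chr17:34956436-34959238), whose promoter is shown above with its dyad, had 3 reads in all uncontracted libraries together and 131 in the contracted ones, a ratio of 46.7 with a 95% counting interval of 15.6 to 229. It stood at 19.5, 19.8 and 48.7 CPM in the contracted libraries, with contracted 3 the highest (log2 change 5.34 ± 0.68, adjusted p = 3.52e-05). The ratio was 30.7 without uncontracted 1, 95.1 without uncontracted 3 and 31.4 without contracted 3. Hspa1a rose from 3.67, 9.27 and 3.90 CPM to 41.7, 38.2 and 89.3 CPM (log2 change 3.26 ± 0.46, adjusted p = 0.000109, and 3.86 without uncontracted 2). Dnajb1, the HSP40 partner of HSP70, rose from 12.8, 14.2 and 9.76 CPM to 37.7, 46.8 and 79.8 CPM (log2 change 2.10 ± 0.37, adjusted p = 0.00135). Hsp90aa1, the inducible HSP90, rose from 42.2, 25.9 and 39.0 CPM to 75.3, 104 and 165 CPM (log2 change 1.64 ± 0.26, adjusted p = 0.000516). Contracted 3 was the highest library for each of these 4 genes. Dnaja1, Dnaja4, Dnajb4 and the mitochondrial chaperonin Hspd1 rose by 0.92 to 1.27 on the log2 scale, Dnajb4 not passing with the animal as a block (adjusted p = 0.0516). Hsph1 and Hspe1, which are also known to be induced by heat, did not pass (0.37 ± 0.18 and 0.40 ± 0.21). Nor did the constitutive forms, with 0.32 ± 0.13 for Hspa8, 0.24 ± 0.14 for Hsp90ab1 and -0.01 ± 0.15 for the endoplasmic reticulum form Hspa5.

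Small heat shock proteins, which hold damaged sarcomere proteins for refolding or disposal, and their partner Bag3 gave 5 rises of 8 members tested (62.5%), no fall and a median of 0.87, or 0.56 with contracted 1 alone. Hspb8, which works with BAG3 in clearing damaged filamin, stood at 818.0, 787.7 and 647.0 CPM in uncontracted and 2312, 2063 and 3012 CPM in contracted libraries. That is a log2 change of 1.66 ± 0.21 (adjusted p = 2.31e-05), and 1.63 with contracted 1 alone. Cryab, alphaB-crystallin, rose from 333, 418 and 390 CPM to 698, 859 and 897 CPM (log2 change 1.06 ± 0.13, adjusted p = 2.55e-05), with Hspb2 overlapping it on the other strand. Hspb1 rose from 36.1, 46.3 and 56.0 CPM to 96.9, 137 and 180 CPM (log2 change 1.54 ± 0.23, adjusted p = 0.000205). Hspb7, a cardiac and skeletal form, rose by 1.08 ± 0.16 and Bag3 by 0.67 ± 0.16, and contracted 1 was the lowest contracted library in both. Flnc, the filamin at the Z-disc that BAG3 helps to clear, rose from 35.5, 63.0 and 67.7 CPM to 204, 238 and 255 CPM (log2 change 2.04 ± 0.23, adjusted p = 7.72e-06). Hspb6 and Hspb2 did not pass (0.14 ± 0.12 and 0.15 ± 0.25).

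The list of titin-linked stress and sarcomere repair genes included some of the largest changes while most of it was flat. Of 38 tested 6 rose, none fell and the median was 0.08. Ankrd1 (chr19:36111961-36120099) stood at 3.67, 2.47 and 9.11 CPM in uncontracted and 212, 354 and 431 CPM in contracted libraries. Its lowest contracted library, contracted 1, was well above its highest uncontracted one. Its log2 change was 5.99 ± 0.41 (adjusted p = 1.6e-08), 6.62 without uncontracted 3 and 5.40 with contracted 1 alone. Xirp1, an actin-binding repair protein of damaged myofibrils (chr9:120013755-120023598), rose from 14.7, 23.5 and 10.4 CPM to 157, 173 and 255 CPM (log2 change 3.53 ± 0.32, adjusted p = 3.74e-07). Mustn1, a small protein of muscle growth and regeneration, rose from 89.9, 88.3 and 106 CPM to 461, 568 and 620 CPM (log2 change 2.5 ± 0.18, adjusted p = 2.2e-08). Klhl40, a ubiquitin ligase adaptor that stabilises thin filament proteins, rose from 188.3, 139.0 and 189.4 CPM to 635.0, 964.0 and 1158 CPM (log2 change 2.38 ± 0.24, adjusted p = 1.61e-06). Lmcd1, a LIM-domain cofactor, rose by 1.17 ± 0.20, and by 0.61 without passing with contracted 1 alone. The sarcomere genes themselves did not pass: 0 of 29 rose or fell, with a median of -0.11, and the fast myosin Myh4 had a log2 change of -0.11 ± 0.13. Ankrd2 and Csrp3, other stretch-sensitive genes, did not pass either (0.23 ± 0.22 and 0.08 ± 0.22).

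**Figure D4:**
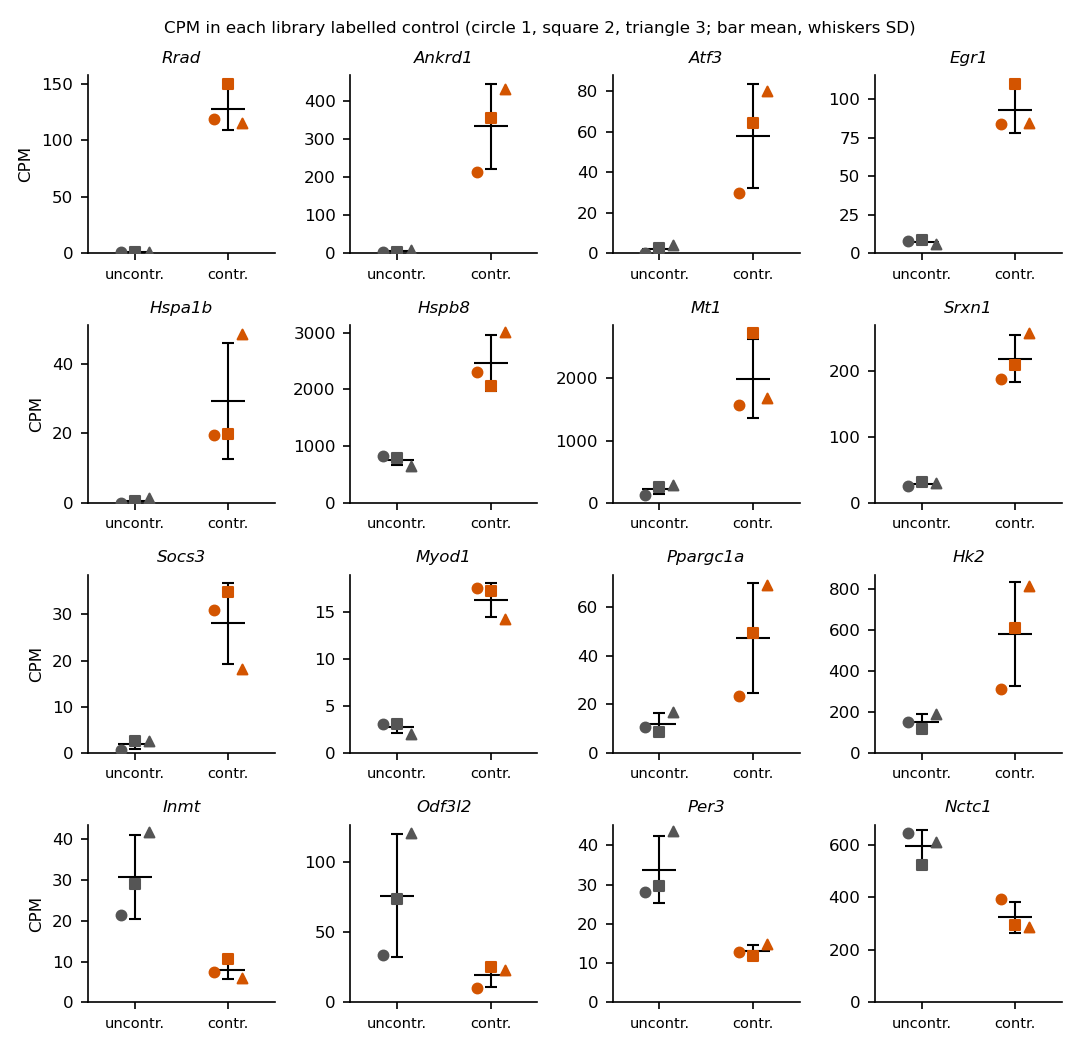
CPM (linear axes from 0) of 16 genes in each of the 6 libraries labelled control, uncontracted in grey and contracted in orange. Circles are number 1, squares 2 and triangles 3, the bar is the mean and the whiskers 1 SD. In the 12 risen genes every contracted library lies above every uncontracted one, and in the 4 fallen genes (Inmt, Odf3l2, Per3 and Nctc1) every one lies below.

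Calcium signalling held the gene with the largest change of all. Rrad, a small GTPase that binds the beta subunit of voltage-gated calcium channels and lowers their current (chr8:104628070-104631327), had 2, 2 and 1 reads in uncontracted and 176, 227 and 170 reads in contracted libraries. That is 1.04 ± 0.334 CPM (SD, n = 3) against 128 ± 19.1 CPM (SD, n = 3), a log2 change of 6.80 ± 0.51 (adjusted p = 2.81e-08) and 6.74 with contracted 1 alone. Rcan1, a calcineurin inhibitor that is itself a target of calcineurin and NFAT, rose from 114, 117 and 64.4 CPM to 271, 269 and 298 CPM (log2 change 1.45 ± 0.24, adjusted p = 0.000587). Nfatc1, an NFAT factor known to induce its own gene, rose by 1.44 ± 0.31. Homer1, a scaffold of calcium channels, rose from 49.5, 34 and 44.9 CPM to 104.3, 97.6 and 119.7 CPM (log2 change 1.29 ± 0.16, adjusted p = 2.31e-05), and its log2 change was 1.31 with contracted 1 alone. Rrad and Rcan1 were the 2 genes of 36 on the calcium list that rose, none fell and the list's median was -0.10. The calcium pump Atp2a1 and the calcium buffer Pvalb did not pass (-0.25 ± 0.13 and -0.35 ± 0.17).

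Fuel and mitochondrial regulators rose by less, and more in contracted 2 and 3 than in contracted 1. Hk2, the hexokinase that traps glucose in the fibre (chr6:82725025-82774454), stood at 149, 116 and 191 CPM in uncontracted and 309, 611 and 814 CPM in contracted libraries. Contracted 1 was the lowest of the contracted libraries by far, and the groups did not overlap. The log2 change was 1.89 ± 0.31 (adjusted p = 0.000646) and 1.06 with contracted 1 alone (adjusted p = 0.0177). Ppargc1a, the coactivator PGC-1alpha (chr5:51454250-51567726), stood at 10.4, 8.65 and 16.9 against 23.5, 49.5 and 69.0 CPM (log2 change 1.94 ± 0.36, adjusted p = 0.00206). With contracted 1 alone it did not pass (1.0, adjusted p = 0.442). Its relative Pprc1 rose by 1.80 ± 0.37, and Nrip1, a corepressor that opposes it, by 0.91 ± 0.23, which did not pass with the animal as a block (adjusted p = 0.0796). Of the 31 genes on the PGC-1 list 3 rose and none fell, with a median of -0.07. Vegfa, a known target of PGC-1alpha, had 0.60 ± 0.28 and did not pass. Ucp3 had -0.94 ± 0.29 (adjusted p = 0.104) and passed downward with the animal as a block (adjusted p = 0.0116). Pfkfb4, which makes the activator of phosphofructokinase, rose by 1.67 ± 0.24 (adjusted p = 0.000134), and Slc16a3, the lactate exporter MCT4, fell from 188, 192 and 196 CPM to 142, 134 and 108 CPM (log2 change -0.61 ± 0.13, adjusted p = 0.00996). Those were the only calls among 28 glycolysis and glycogen genes, 3.57% in each direction, against 2.38% risen and 0.419% fallen of all genes tested. Nmrk2, the muscle nicotinamide riboside kinase, rose by 1.57 ± 0.29, and had 0.71 with contracted 1 alone (adjusted p = 0.664). However, the antisense gene Atcayos, which overlaps it, fell by 0.66 ± 0.14 on the log2 scale, and their reads cannot be told apart without strand. Of the 37 mitochondrially encoded genes 13, with mt-Co2, mt-Atp6 and mt-Nd3 among them, held 0 reads in all 6 libraries, and the cause was not tested. None of 75 oxidative phosphorylation subunits, 72 mitochondrial ribosomal proteins, 19 fatty acid oxidation genes or 15 tested mitochondrially encoded genes passed. Their medians were 0.01, 0.01, -0.03 and 0.15. Only 2.8% of all genes tested passed, so an absence of calls in lists of these sizes says little.

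Metal and oxidant defence genes gave 7 rises of 33 tested (21.2%), no fall and a median of 0.22. Mt1 (chr8:94179082-94180327), a metallothionein that buffers zinc and copper, stood at 127.2, 258.2 and 292.9 CPM in uncontracted and 1579, 2724 and 1689 CPM in contracted libraries. Its neighbour Mt2 stood at 58.1, 145.8 and 146.4 against 1008, 1495 and 939.3 CPM. In both genes contracted 2 was the highest, and the groups did not overlap. The log2 changes were 3.12 ± 0.30 for Mt1 (adjusted p = 9.83e-07) and 3.27 ± 0.32 for Mt2 (adjusted p = 9.83e-07), and 2.83 and 3.13 with contracted 1 alone. Mt3, a further metallothionein of the cluster, rose by 2.26 ± 0.40, and Slc39a10, a zinc importer outside this list, by 2.99 ± 0.47 (adjusted p = 0.000445). Srxn1, sulfiredoxin, which reactivates oxidised peroxiredoxins, rose from 25.1, 32.1 and 30.6 CPM to 189, 210 and 258 CPM (log2 change 2.86 ± 0.28, adjusted p = 9.83e-07). Osgin1, a growth inhibitor induced by oxidants, rose by 2.35 ± 0.48, the haem-degrading enzyme Hmox1 by 2.19 ± 0.46 and thioredoxin reductase Txnrd1 by 1.75 ± 0.28. Mt2, Srxn1 and Osgin1 are the genes whose promoter site is shown above.

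Of 23 tested genes of cytokine, myokine and IL-6 family signalling, among them Stat3, 6 rose (26.1%), none fell and the median was 0.35. Only RNA was measured, so signalling through these proteins was not tested. Socs3, the feedback inhibitor of IL-6 family receptors (chr11:117966079-117970047), stood at 0.611, 2.47 and 2.60 against 30.9, 35.0 and 18.3 CPM. Here contracted 3 was the lowest of the contracted libraries (log2 change 3.82 ± 0.56, adjusted p = 0.000175, and 4.01 with contracted 1 alone). Stat3 rose from 22.6, 25.9 and 40.4 CPM to 60.5, 85.1 and 89.3 CPM (log2 change 1.38 ± 0.22, adjusted p = 0.000445), with Stat5a overlapping it on the other strand. Tnfrsf12a, the TWEAK receptor known to rise in injured muscle, rose by 3.41 ± 0.59, by 4.36 without uncontracted 2, and had 2.63 with contracted 1 alone, which did not pass (adjusted p = 0.346). Timp1, an inhibitor of matrix metalloproteases, rose by 3.18 ± 0.75. Timp1 had 3 reads against 29 (ratio 10.3, counting interval 3.2 to 53) and lost its call without uncontracted 2 or uncontracted 3. The ratio was 20.4 without uncontracted 1, 6.84 without uncontracted 2 and 9.06 to 11.3 in the other omissions. Ifrd1, an interferon-related regulator of myoblast differentiation, rose from 44.6, 45.1 and 42.3 CPM to 98.9, 133 and 91.3 CPM (log2 change 1.26 ± 0.19, adjusted p = 0.000339), and Il4ra, the receptor of IL-4, by 1.43 ± 0.37. Il6, Lif and Cxcl2 were listed at 0 reads in all 6 libraries. Serpina3n, an acute phase protease inhibitor, rose from 1.22, 3.71 and 3.90 CPM to 27.6, 35.6 and 27.1 CPM (log2 change 3.3 ± 0.40, adjusted p = 2.02e-05), and haptoglobin, Hp, by 2.12 ± 0.37.

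Genes known to answer mechanical load and YAP gave 6 rises of 27 tested (22.2%), no fall and a median of 0.30. Of the 41 listed names 39 matched a symbol. The known YAP targets Cyr61 and Ctgf matched none under these names and are not among the genes counted. Hbegf, a membrane-shed ligand of the EGF receptor, rose from 18.9, 10.5 and 22.1 CPM to 84.1, 121 and 128 CPM (log2 change 2.66 ± 0.23, adjusted p = 2.82e-07). The tubulins Tuba1c and Tubb6 rose by 2.41 ± 0.25 and 2.5 ± 0.39, Tubb6 by 3.22 without uncontracted 2. For Tuba1c the contracted libraries were nearly equal, at 157, 162 and 162 CPM against 26.3, 32.7 and 29.3. The nuclear lamina gene Lmna rose by 0.74 ± 0.17 and the actin regulator Enah by 1.21 ± 0.27, the latter 0.52 with contracted 1 alone. Abra, a muscle activator of SRF that stands outside this list, rose by 1.48 ± 0.25 (adjusted p = 0.000736), and Ahnak, a membrane scaffold, by 0.71 ± 0.15.

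Myogenic regulators of differentiation rose in 3 of 20 cases, none fell and the median was 0.11. Myod1, the master factor of the muscle lineage, stood at 3.06, 3.09 and 1.95 against 17.5, 17.1 and 14.2 CPM, a tight change in every library (log2 change 2.52 ± 0.37, adjusted p = 0.000201, and 2.67 with contracted 1 alone). Runx1, a factor known from denervated and injured muscle, had 2 reads in all uncontracted libraries and 42 in the contracted ones (ratio 22.4, counting interval 5.84 to 191, log2 change 4.21 ± 0.74, adjusted p = 0.00112). Without uncontracted 2 or contracted 2 its ratio was 14.9 and 17.0, and in the other omissions 23.1 to 30.5. With contracted 1 alone its log2 change was 3.48 (adjusted p = 0.301). Myf6, the factor of mature fibres, rose by 2.17 ± 0.49, at 1.11 with contracted 1 alone. Myostatin, Mstn, had 5, 5 and 6 reads against 6, 10 and 17 and did not pass. Trim63, the atrophy ubiquitin ligase MuRF1, rose from 91.1, 169 and 234 CPM to 383, 562 and 577 CPM (log2 change 1.60 ± 0.28, adjusted p = 0.0011). It was the only call among 34 atrophy, FoxO and autophagy genes (2.94%, near the 2.38% risen of all genes tested). Its usual companion Fbxo32 had -0.24 ± 0.24 and did not pass.

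Genes of ribosome production were higher chiefly in contracted 2 and 3. Of 58 rRNA processing and nucleolar genes 7 rose (12.1%), none fell, 53 had a change above 0 and the median was 0.50, against 0.20 with contracted 1 alone. Their summed level was 1170, 1060 and 1250 CPM in uncontracted and 1270, 1820 and 2020 CPM in contracted libraries, so that contracted 1 lay just above the uncontracted range. Myc, in contracted 1 at 0.673 CPM, moved with this sum, and its part was not tested. Ncl, nucleolin, stood at 61.1, 75.4 and 82.0 against 86.8, 134 and 147 CPM (log2 change 0.72 ± 0.17, adjusted p = 0.0224, and 0.28 with contracted 1 alone). Rrp12, a ribosome export factor, stood at 59.3, 45.7 and 56.0 against 57.9, 112 and 106 CPM, so that contracted 1 lay within the uncontracted range (log2 change 0.74 ± 0.18, adjusted p = 0.0288, and 0.13 with contracted 1 alone). It did not pass with the animal as a block (adjusted p = 0.0879). Wdr43 rose by 0.87 ± 0.21, had 0.26 with contracted 1 alone, and passed with the block (adjusted p = 0.0403). Ddx10, Rrp1b, Rrs1 and Gnl3 rose by 1.14 to 2.77 on the log2 scale. With contracted 1 alone Rrp1b had 1.07 (adjusted p = 0.888) and Gnl3 0.49 (adjusted p = 0.962). Npm1 had 31, 40 and 37 against 40, 70 and 84 reads and did not pass (0.90 ± 0.27, adjusted p = 0.0957). None of 78 cytosolic ribosomal proteins passed, although 70 had a change above 0 and the median was 0.21, which was 0.02 with contracted 1 alone. Among 64 translation factors and tRNA synthetases Eif1a alone passed (1.82 ± 0.26, adjusted p = 0.000116), 1.56% against 2.38% risen of all genes tested. Polyamine and nucleotide synthesis gave 3 rises of 29, Uck2 (1.99 ± 0.31), Azin1 (1.51 ± 0.25) and Srm (1.20 ± 0.25). For Azin1, which protects ornithine decarboxylase, contracted 1 at 41.7 CPM was as high as the others at 39.6 and 39.9.

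Transport and other lists held few calls. Slc38a2, the amino acid transporter SNAT2 known to answer amino acid shortage and osmotic stress, rose from 41.0, 56.8 and 44.9 CPM to 201, 228 and 250 CPM (log2 change 2.20 ± 0.21, adjusted p = 9.83e-07), and the taurine transporter Slc6a6 by 1.31 ± 0.33. Those were 2 of 16 transporters (12.5%, against 2.38% of all genes tested). Of the 16, 14 had a change above 0, and the median was 0.26, or 0.02 with contracted 1 alone. Among 17 genes of ATF4 and endoplasmic reticulum stress none rose and 1 fell, Chac1, a glutathione-degrading enzyme (39.7, 45.1 and 64.4 against 28.2, 22.4 and 30.4 CPM, log2 change -0.90 ± 0.21, adjusted p = 0.0153). The clock list gave 1 rise, the repressor Bhlhe41 (1.15 ± 0.23), and 1 fall of 17. Per3, the fallen clock gene (chr4:151003652-151044665), stood at 28.1, 29.6 and 43.6 against 12.8, 11.9 and 14.9 CPM (log2 change -1.38 ± 0.23, adjusted p = 0.000858, and -1.37 with contracted 1 alone). Of 10 glucocorticoid response genes 1 rose, Errfi1. Growth arrest and p53 targets (17 tested), hypoxia and angiogenesis (19), proteasome subunits (38), interferon and NF-kB targets (13) and BMP, TGF-beta and Wnt genes (19) held no call, with medians between -0.09 and 0.22. With 2.8% of all genes tested passing, an absence of calls in lists of these sizes says little.

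**Figure D5:**
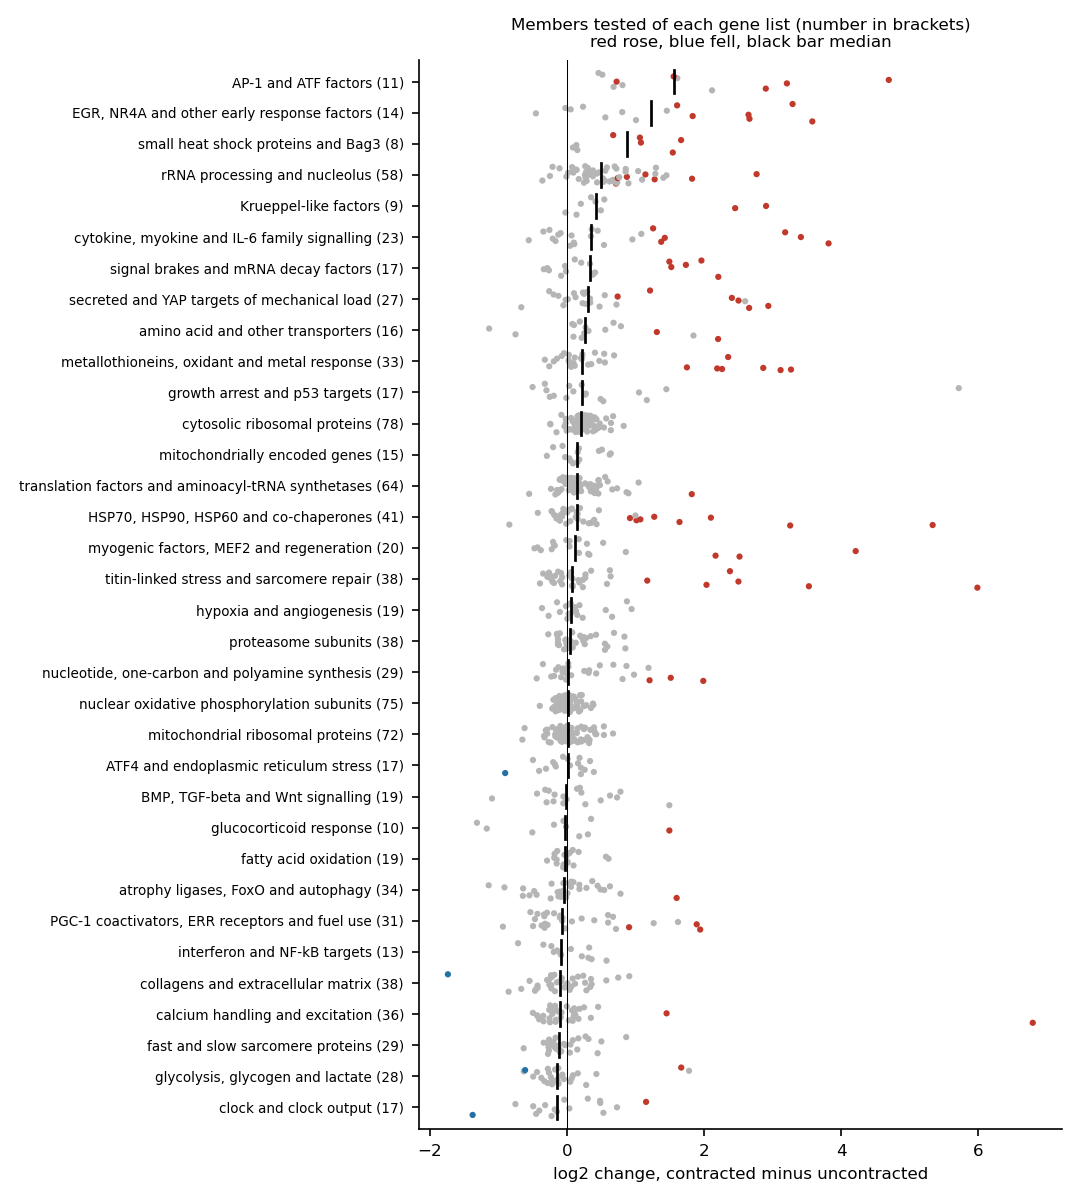
Log2 change (contracted minus uncontracted) of every tested member of each gene list, with the number tested in brackets. Red members rose, blue ones fell, grey ones did not pass and the black bar is the list's median. AP-1 and ATF factors have the highest median (1.56), and long right tails with medians near 0 mark the calcium, titin-linked and HSP70 lists. Members near 0 at rest could be tested through contracted libraries alone, so the order of the medians is no test.

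The lists hold 89 of the 187 calls, and 77 rises and 21 falls stand outside them. Midn, midnolin, which takes early response proteins to the proteasome, was an abundant member of these, from 65.4, 90.8 and 90.5 CPM to 609, 656 and 500 CPM (log2 change 2.81 ± 0.26, adjusted p = 7.24e-07). Contracted 1 was between the other 2 contracted libraries. Sox9, a factor of cartilage and tendon, was nearly constant within groups, at 5.50, 5.56 and 5.21 against 52.5, 56.0 and 62.9 CPM (log2 change 3.34 ± 0.40, adjusted p = 1.36e-05). Thbd, thrombomodulin, an endothelial anticoagulant receptor, stood at 7.95, 8.03 and 8.46 against 54.5, 71.9 and 45.3 CPM (log2 change 2.77 ± 0.31, adjusted p = 4.99e-06). Otud1, a deubiquitinase, rose by 3.24 ± 0.42, and Gm13889, a gene model, by 3.87 ± 0.52 (adjusted p = 5.86e-05). Sgms2, a sphingomyelin synthase, had 2 reads against 40 (ratio 21.4, counting interval 5.54 to 183), with 14.1 to 29.0 over the omissions of single libraries. Sphk1, a sphingosine kinase, had 1 read against 27 (ratio 28.9, counting interval 4.76 to 1180), was highest in contracted 1, and lost its call without uncontracted 1 or 2. Its ratio was 19.0 and 19.1 in those omissions and 38.3 without contracted 3. Without uncontracted 3 no uncontracted read was left, and it was at least 6.54-fold higher, against 3 reads over the group. Dot1l, the histone H3 lysine methyltransferase, rose by 1.55 ± 0.19 (adjusted p = 1.34e-05), and the scaffold Cnksr1, which lies next to Trim63, by 1.76 ± 0.20 (adjusted p = 7.01e-06).

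Others outside the lists differed more between contracted libraries. Retreg1, a receptor for autophagy of the endoplasmic reticulum, stood at 42.2, 49.4 and 82.0 against 111.0, 265.7 and 365.8 CPM (log2 change 2.06 ± 0.38, adjusted p = 0.00201, and 0.98 with contracted 1 alone). Snai3, a SNAIL family repressor, stood at 8.56, 6.80 and 11.1 against 10.8, 29.0 and 37.9 CPM (log2 change 1.51 ± 0.38, adjusted p = 0.029, and 0.32 with contracted 1 alone). For Snai3 contracted 1 lay within the uncontracted range. Pdpn, podoplanin, went the other way, at 11.6, 8.65 and 16.9 against 49.8, 47.5 and 29.8 CPM (log2 change 1.75 ± 0.29, adjusted p = 0.000694, and 2.03 with contracted 1 alone). Cavin1, a coat protein of caveolae, rose from 414, 372 and 441 CPM to 620, 729 and 738 CPM (log2 change 0.73 ± 0.12, adjusted p = 0.000882). Cd63, a tetraspanin of lysosomes and exosomes, rose by 0.81 ± 0.15, with contracted libraries of 194.4, 202.4 and 181.9 CPM against 103.3, 101.9 and 117.2.

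Genes that fell did so by smaller steps. Arrdc2, an alpha-arrestin (chr8:70835129-70839720), stood at 6.11, 18.5 and 22.1 against 4.71, 3.3 and 2.71 CPM (log2 change -2.12 ± 0.43, adjusted p = 0.00499). Its uncontracted 1 was close to the contracted range without touching it. Odf3l2, an outer dense fibre family gene (chr10:79639526-79645738), varied widely at rest, at 33.6, 73.5 and 121 CPM, and stood at 10.1, 25.1 and 23.0 CPM after contraction. In each pair of equal number the contracted leg was the lower, and the log2 change was -1.98 ± 0.34 (adjusted p = 0.000858), or -2.86 with contracted 1 alone. Inmt, an indole and thioether methyltransferase (chr6:55170626-55175043), fell from 21.4, 29.0 and 41.7 CPM to 7.40, 10.6 and 6.09 CPM (log2 change -1.94 ± 0.28, adjusted p = 0.000134, and -2.01 with contracted 1 alone). Inmt and Odf3l2 were the 2 falls among the 187 calls that passed also with contracted 1 alone. Pik3ip1, an inhibitor of PI3 kinase, fell by 1.20 ± 0.29 on the log2 scale, which did not pass with the animal as a block (adjusted p = 0.051).

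The more abundant falls were tighter. Nctc1, a noncoding RNA near Igf2 and H19 (chr7:142544609-142558596), stood at 646, 523 and 610 against 393, 293 and 286 CPM (log2 change -0.90 ± 0.16, adjusted p = 0.00193). Prr33, its neighbour, stood at 234, 211 and 249 against 157, 154 and 122 CPM (-0.71 ± 0.16, adjusted p = 0.0109). However, Prr33 overlaps Lsp1 and the far more abundant Tnnt3 (mean 16800 CPM in uncontracted libraries) on the other strand. Their reads cannot be told apart without strand. Lrrc30 stood at 490, 437 and 503 against 287, 284 and 212 CPM (-0.90 ± 0.19, adjusted p = 0.00729). All 3 were less lowered with contracted 1 alone, at -0.57, -0.54 and -0.71. The phosphatase Ptp4a3 (-0.56 ± 0.15), the semaphorin Sema6c (-0.64 ± 0.16), the ubiquitin ligase subunit Asb14 (-0.69 ± 0.17) and Trim7, which binds glycogenin (-0.70 ± 0.18), were also lower. Of these Ptp4a3 and Asb14 did not pass with the animal as a block (adjusted p = 0.0542 and 0.0547), nor did C2cd2, Gigyf1 and Dpep1 (0.0751, 0.0594 and 0.0523).

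Several of the fallen genes are known from cells other than fibres. Ramp2, the adrenomedullin receptor partner known from endothelium and overlapped by Vps25, stood at 32.4, 26.6 and 41.7 against 17.5, 15.8 and 14.9 CPM (log2 change -1.08 ± 0.22, adjusted p = 0.00499). Mxra8, known from fibroblasts, stood at 28.1, 34 and 34.5 against 18.8, 9.23 and 9.47 CPM (-1.39 ± 0.27, adjusted p = 0.0033, and -0.75, adjusted p = 0.671, with contracted 1 alone). Frzb, a secreted Wnt inhibitor and the only call among 38 extracellular matrix genes, stood at 9.17, 13.6 and 10.4 against 2.69, 3.96 and 3.38 CPM (-1.74 ± 0.41, adjusted p = 0.0177). That 1 call is 2.63% of the list, against 0.419% fallen of all genes tested. Csf1r, the macrophage growth factor receptor, fell by 0.80 ± 0.21 on the log2 scale, Myl9, a smooth muscle light chain, by 0.76 ± 0.21 and Chodl, a tendon marker here, by 1.03 ± 0.26. With the animal as a block these 3 did not pass (adjusted p = 0.0542, 0.107 and 0.067). Most other markers of the same lists did not pass: 4 of 5 macrophage, 5 of 6 smooth muscle and pericyte, and 4 of 5 tendon markers tested. Summed levels of macrophage markers were 142 to 227 CPM without and 114 to 156 CPM with contraction, those of smooth muscle and pericytes 219 to 291 and 183 to 205, those of endothelium 229 to 259 and 217 to 238, and those of fibroblasts 1140 to 1760 and 1040 to 1370. Those of tendon were 246 to 298 without and 264 to 318 with contraction, and the tendon marker Thbs4 was higher in every contracted library without passing (0.73 ± 0.25, adjusted p = 0.16). The part of these cells in the falls was not tested.

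Neutrophil and blood markers went the other way in some libraries. S100a8, a calprotectin subunit abundant in neutrophils, stood at 0, 1.24 and 2.60 against 42.4, 5.93 and 48.0 CPM (log2 change 4.56 ± 0.92, adjusted p = 0.0066, and 5.44 without uncontracted 3). Its partner S100a9 had 0, 0 and 1 reads against 16, 1 and 30 (ratio 50.2, counting interval 8.59 to 2030, log2 change 5.16 ± 1.28, adjusted p = 0.0312). Both were high in contracted 1 and contracted 3 and low in contracted 2. The S100a9 call was lost without any single uncontracted library or contracted 3, with ratios of 33.1 without uncontracted 1, 33.3 without uncontracted 2 and 27.1 without contracted 3, against 74.3 without contracted 2. Without uncontracted 3 no uncontracted read was left, and it was at least 11.4-fold higher, against 3 reads over the group. These were the only 2 of 9 listed neutrophil markers that could be tested. The sum over the list was 0, 1.85 and 4.56 CPM at rest and 66.6, 9.23 and 77.8 CPM after contraction, and its defining members Ly6g, Csf3r and Cxcr2 were at 0 in all 6 libraries. The summed haemoglobin and Alas2 level was 345, 424 and 330 against 629, 400 and 597 CPM, also lowest in contracted 2, and none of 4 tested passed. The part of blood cells in any rise was not tested.

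Contraction could be compared between legs labelled control and legs labelled Myc by an interaction term over all 12 libraries. No gene passed (0%, edgeR), and 331 had an unadjusted p under 0.05 while DESeq2 called 0. The smallest adjusted p was 0.275. Of the 187 genes 183 had the same sign in the Myc-labelled legs, and the share with the same sign among all genes tested was not counted. An unadjusted interaction p under 0.05 (edgeR) was found in 20 of the 187, against 331 of all 6676 tested. The control contrast that picked the 187 is also part of the interaction, so neither count is a test. Contracted control 2 and 3 hold 10 and 59 Myc reads, whereas contracted Myc 2 and 3 hold 0 and 2. The interaction therefore compares the labels and not known Myc levels.

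With each of the 6 libraries left out in turn, 92 of the 187 calls (85 rises and 7 falls) passed every time, and none changed sign. The calls were picked with all 6 libraries, so a kept sign is no independent test. Among the genes named here, Ahnak, Lrrc30, Nfatc1, Prr33 and Srm lost their call in 1 of the 6 omissions. Atcayos, Chac1, Ddx10, Enah, Hspd1, Lmna, Rrs1, Slc16a3, Sphk1, Spry2 and Timp1 lost it in 2, and Dnaja1, Fosb and Frzb in 3. Bag3, Chodl, Csrnp1, Dnaja4, Dnajb4, Dpep1, Errfi1, Gigyf1, Jund, Myf6, Ncl, Pik3ip1, Rrp12, S100a9, Sema6c, Slc6a6, Trim7 and Wdr43 passed in only 2 omissions, and Arid5a, Asb14, C2cd2, Csf1r, Gnl3, Il4ra, Myl9, Nrip1, Ptp4a3 and Snai3 in only 1. Contracted 1 was seldom the library they needed: its omission ended the calls of Arid5a, Errfi1 and Sema6c among these, whereas the omission of contracted 3 ended 38 of them. All other risen and fallen genes named here passed in all 6 omissions.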

How the data were processed

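Gastrocnemius RNA was sequenced with a QuantSeq 3' mRNA kit, per the labels' protocols. The authors deposited 1 table of read counts per gene, whole and not normalized, for 12 libraries. The submitters' processing notes name FastQC 0.11.5, STAR 2.5.2a, SAMtools, HTSeq 0.6.0 and mm10. Annotation release and strand setting are not given in the sources used here. All value columns were matched to samples.

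Of 47643 gene identifiers 47224 matched a symbol, and the other 419 held no more than 0.0128% of the reads in any control library. Positions are GENCODE's for GRCm38 (mm10), matched by Ensembl identifier, and promoter sequences are RefSeq's (GRCm38.p6). The test was edgeR's 2-sided quasi-likelihood F test (version 4.0.16, R 4.3.3) on 4 group means over all 12 libraries, after TMM scaling and the filterByExpr filter at 10 reads, with Benjamini-Hochberg adjustment. Each SE is the size of the log2 change divided by the square root of F. Spread and p-values are between these libraries. Intervals cover counting error only, since reads are not independent molecules. The scripts were tested on simulated data.

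Equal numbers in the titles are read as the 2 legs of a mouse, from the titles alone. The correlation of the legs' deviations from their group means was 0.0129, -0.0553 and 0.112 in the control mice, only the last of them above 0.1, and the animal as a block was an alternative. Others were other scaling, other filters, DESeq2 1.42.0, the 6 libraries alone and omissions of libraries.

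Named genes were Myc, the 25 largest rises and falls that passed without overlap of the groups at 5 CPM or more, the 15 most abundant of each direction, called list members and up to 4 members of each list by p. Genes named beyond these were chosen after their values were seen. One list member that rose is counted but not reported here by name. The comparison, lists and genes were chosen with earlier results of these data known. Listed names that matched no symbol are not counted in their lists. They were Cyr61, Ctgf, Bmal1, Gilz, Figf, Utp11l, Mars1 and 8430408G22Rik.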

Additional observations from a re-analysis of the deposited data

How the results depend on the processing

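The count of 187 genes, with 159 rises and 28 falls, changed most with the filter and the libraries. Without a low-count filter 305 of 17871 genes passed (255 up, 50 down), 185 of them among the 187, and the interaction gave 18. DESeq2 called 157, with 17 falls. With the animal as a replicate block 172 passed (151 up, 21 down), 164 of them shared, and the calls this ended among the genes described are given beside them. RLE scaling gave 189, library totals alone 170, a stricter filter 173, and the 6 libraries alone 173, or 159 with the replicate block. The direction of all 187 held in every setting that measured them. Each setting reused libraries that picked these genes, so a kept direction is no independent test. Omitting 1 library gave 116 (without contracted 3) to 313 (without contracted 1) calls, 107 to 235 rises and 9 to 78 falls. Falls numbered 14 without uncontracted 2, 18 without uncontracted 3, 16 without contracted 2 and 23 without uncontracted 1. For the interaction the omissions gave 0 to 4 genes. A further pair of alternatives was chosen after seeing the data: without the 4 contracted libraries numbered 2 and 3, 67 passed (64 up, 3 down), and without contracted control 2 and 3 only, 57 (54 up, 3 down). The cause of these differences was not tested. At 1478772 to 1635751 reads a library, changes of genes under 10 CPM had a median SE of 0.40.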
